A study of Mus musculus with 9 samples.

Results

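Sterol and fatty acid synthesis in the colonic mucosa was followed through 34 genes, chosen by name as the regulators of the sterol regulatory element binding protein (SREBP) pathway, the enzymes that lead from acetyl units to cholesterol, 1 sterol transfer protein, and the enzymes that make, desaturate and elongate fatty acids. All 34 symbols were found among the 54146 genes of the RNA-seq table. The rule was a list of gene symbols and set no threshold on a measured value. These members and the further lists read below were chosen with earlier results of these data known. The samples were colonic mucosa (crypts, according to the methods of the study) of 9 C57BL/6J mice at 15 wk of age. The control group was 5 ApcMin/+ mice, 2 females and 3 males. The other group was 4 ApcMin/+; p16cis/cis mice, 3 females and 1 male, replicate 1, and they are called p16cis/cis mice from here on although both groups carry the same Apc allele. ApcMin is a heterozygous germline mutation of Apc that predisposes the intestine to adenomas, and p16cis is a knock-in of a short cis-element that spreads DNA methylation at the p16 promoter. Both alleles are present throughout the animal and not only in the gut, and the comparison was made to find genes whose expression depends on the p16 epimutation in Apc-mutant mucosa. The labels name no litter, cage or extraction day.

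Cells make cholesterol from acetyl-CoA by way of mevalonate, squalene and lanosterol. The genes for these steps are switched on together by Srebf1 and Srebf2, transcription factors made as precursors in the membrane of the endoplasmic reticulum. Scap carries the precursors to the Golgi, where proteases release the active part, and Insig proteins hold Scap back when sterols are plentiful. Srebf2 acts mainly on sterol synthesis and Srebf1 mainly on fatty acid synthesis, and Insig1 is itself a target of the pathway. In the colon these genes are active in the crypt epithelium, which renews itself continuously and has to build membrane.

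Promoter sequence is shown for Insig1 and Acacb, which are called below, and for Hmgcs1. Hmgcs1 is the single member whose window holds the exact letters used here for the core of a sterol regulatory element. The windows are those of RefSeq (GRCm38.p6), 250 bases before to 50 bases after the start of the gene, and 27 of the 34 members had one. The letters TCACNCCAC (the core of a sterol regulatory element), CCAAT (the NF-Y box) and GGGCGG (the Sp1 box) were searched on both strands, and these motifs share no letters in the stretches printed. The bases before the annotated first exon are given 5′ to 3′ on the plus strand, with matches in capitals. The Insig1 stretch is chr5:28071162-28071362, the Acacb stretch is chr5:114165268-114165517, which lies before transcript Acacb-201 and inside an intron of the longer gene model, and the Hmgcs1 stretch is chr13:119690101-119690350.
Insig1: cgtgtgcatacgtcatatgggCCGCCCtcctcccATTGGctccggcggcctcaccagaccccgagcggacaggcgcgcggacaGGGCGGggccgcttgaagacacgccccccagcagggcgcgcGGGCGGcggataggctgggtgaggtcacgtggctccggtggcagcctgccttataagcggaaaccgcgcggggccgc
Acacb: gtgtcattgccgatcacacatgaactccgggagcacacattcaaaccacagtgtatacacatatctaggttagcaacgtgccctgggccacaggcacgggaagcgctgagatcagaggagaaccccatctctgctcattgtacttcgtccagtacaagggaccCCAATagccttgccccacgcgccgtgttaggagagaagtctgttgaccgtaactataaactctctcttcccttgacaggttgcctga
Hmgcs1: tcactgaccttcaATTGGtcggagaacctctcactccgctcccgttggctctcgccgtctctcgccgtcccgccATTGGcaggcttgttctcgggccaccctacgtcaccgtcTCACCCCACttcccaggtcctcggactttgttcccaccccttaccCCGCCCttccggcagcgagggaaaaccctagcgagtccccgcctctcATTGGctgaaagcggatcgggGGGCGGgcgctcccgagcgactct
Hmgcs1 was the single member with TCACNCCAC in its window, 137 bases before the start, where 1.44% of all 27025 genes with a window hold it. CCAAT was in the windows of 23 of the 27 members and of 41.1% of all genes. GGGCGG was in those of 21 of the 27 members and of 38.2% of all genes. Insig1 had 1 CCAAT and 3 GGGCGG in the stretch, Acacb had 1 CCAAT, and Hmgcs1 had 3 CCAAT and 2 GGGCGG. A match of letters is a description of the sequence and not a site at which a factor was measured. The absence of a match does not show that a gene lacks such a site. Sites with other letters or outside the window were not searched, nor were the members without a window.

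The libraries held 15745098 to 17885918 reads on genes in ApcMin/+ mice and 13523500 to 14900228 in p16cis/cis mice. Mitochondrial genes took 12.0% ± 2.87 (SD, n = 5) of the reads in ApcMin/+ mice and 24.2% ± 4.41 (SD, n = 4) in p16cis/cis mice, and the ranges, 8.74% to 15.6% and 19.3% to 29.8%, do not overlap, so that this share and the genotype cannot be told apart. Markers of colonic epithelium, a list of 14, were all detected and summed to 467969 to 805272 normalized counts in ApcMin/+ mice and 476239 to 557695 in p16cis/cis mice. A normalized count is the number of reads on a gene divided by a size factor of the library. In a bulk sample, fewer cells of a type and less RNA per cell cannot be told apart.

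All 34 members passed the filter on low values, which asked for 10 normalized counts or more in 4 of the mice. Insig1 among the regulators, Stard4 in sterol transfer and Acacb in fatty acid synthesis fell in p16cis/cis mice. These 3 of 34 members passed in limma at p under 0.05 after Benjamini-Hochberg adjustment, beside 8.75% of the 14410 genes tested that were called lower, so the share of members called lower was close to that of all genes. In limma 0 members were called higher, beside 8.14% of all genes tested. The edgeR test called 3 members lower, beside 9.05% of all genes, and 0 higher, beside 8.08%. DESeq2 called 5 lower, beside 11.5% of the genes it tested, and 0 higher, beside 10.9%. At an unadjusted p under 0.05 in limma, 9 members were lower and 2 were higher, beside 17% and 16.2% of all genes tested. No member passed with a fold change over 2, a rule that 3.48% of all genes met in either direction. The log2 fold change was below 0 in 25 of the 34 members and in 50.4% of all genes tested, with a median of -0.18 over the members and -0.004 over all genes. Of the members 1, Stard4, had no overlap between the genotypes in the lower direction, beside 8.95% of all genes, and 0 had none in the higher direction, beside 7.24%. With the mitochondrial share as a covariate 0 members and 0.0% of all genes were called lower in limma, with 2 members lower at an unadjusted p under 0.05, and under Bonferroni adjustment 0 members and 0.153% of all genes were.

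Among the regulators, Insig1, the sterol sensor that retains Scap in the endoplasmic reticulum, fell and the other 3 did not pass the test. Insig1 (ENSMUSG00000045294.11, chromosome 5 from 28071363 to 28078662, plus strand) had normalized counts of 1549, 1389, 1499, 1787 and 1882 in ApcMin/+ replicates 1 to 5 and 597, 1192, 1471 and 794 in p16cis/cis replicates 1 to 4. The p16cis/cis replicates 1 and 4 were well below every ApcMin/+ mouse, replicate 2 was also below them, and replicate 3 lay inside their range. The means were 1621 ± 206 (SD, n = 5) in ApcMin/+ against 1014 ± 393 (SD, n = 4) in p16cis/cis mice, a log2 fold change of -0.75 ± 0.22 (SE) with an adjusted p of 0.0368 in limma. In edgeR the adjusted p was 0.0494 and in DESeq2 0.0172. The call rests on few mice: it held without ApcMin/+ replicate 4 or p16cis/cis replicate 3 and was lost without any 1 of the other 7 mice, with adjusted p-values up to 0.112. It was also lost in females alone (limma, adjusted p = 0.148) and after correction for GC content and length (0.0559). Without p16cis/cis replicate 1, the male, the log2 fold change was -0.53, and without p16cis/cis replicate 3 it was -0.96.

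The transcription factor genes themselves differed little. Srebf1, which drives lipogenic genes, had normalized counts of 2087, 2881, 2860.4, 3365 and 1964 in ApcMin/+ replicates 1 to 5 and 2192, 1873, 3271 and 1773 in p16cis/cis replicates 1 to 4. The 2 groups overlapped, with ApcMin/+ replicates 1 and 5 among the low values and p16cis/cis replicate 3 the second highest of all 9 mice. The log2 fold change of Srebf1 was -0.22 ± 0.20 (SE) (limma, adjusted p = 0.478). Srebf2, the main activator of sterol synthesis, had 5343, 5873, 5952, 6686 and 5975 in ApcMin/+ replicates 1 to 5 and 5352, 4844, 6827 and 6142 in p16cis/cis replicates 1 to 4. Its highest and its lowest value were both in p16cis/cis mice, replicates 3 and 2. Its log2 fold change was -0.05 ± 0.12 (SE) (limma, adjusted p = 0.799). Scap, the escort of the precursors, had 1322, 1341, 1342, 1621 and 1180.5 in ApcMin/+ replicates 1 to 5 and 1315, 1330.4, 1336 and 1281 in p16cis/cis replicates 1 to 4. The 4 p16cis/cis values of Scap lay within a narrow band inside the ApcMin/+ range, and the log2 fold change was -0.04 ± 0.10 (SE) (limma, adjusted p = 0.808). The level of an SREBP mRNA does not give the amount of cleaved protein, which was not measured here.

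**Figure D1:**
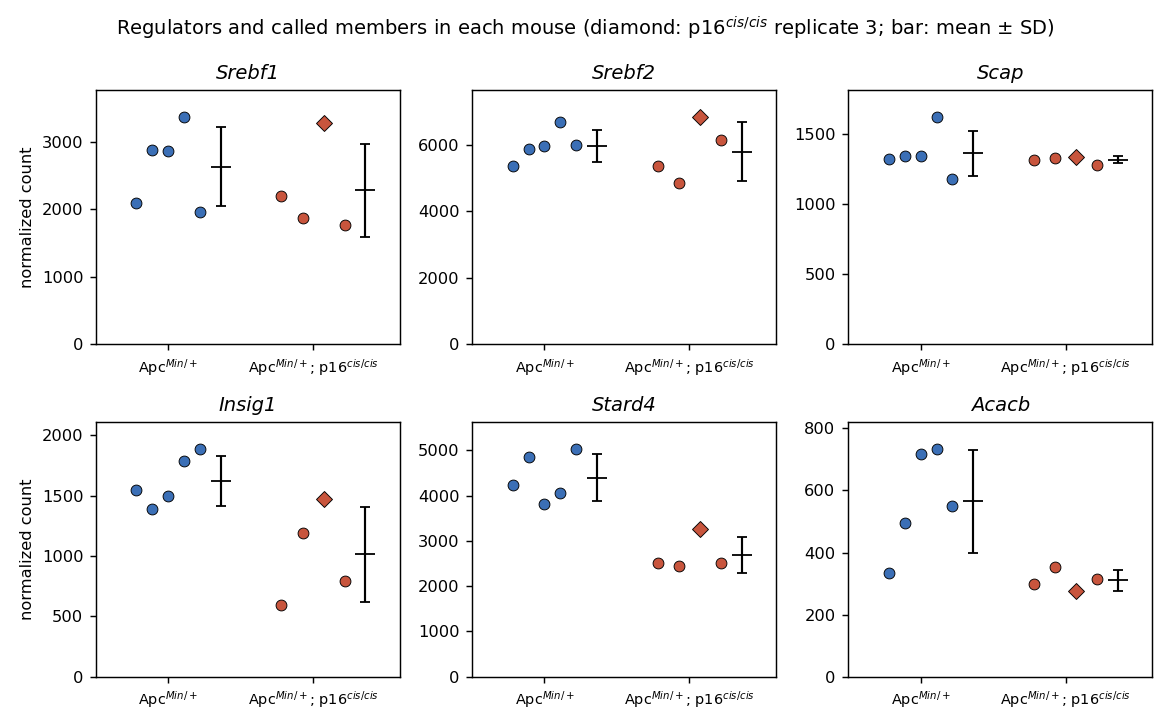
Normalized counts (y axis, from 0) of the 4 regulators and of the called members Stard4 and Acacb in each of the 5 ApcMin/+ mice (blue) and 4 ApcMin/+; p16cis/cis mice (red), with the mean and SD as black bars and p16cis/cis replicate 3 as a diamond. Srebf1, Srebf2 and Scap overlap between the genotypes, Stard4 does not, and the diamond is the highest p16cis/cis value in all panels but Acacb.

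Stard4, a soluble protein that carries cholesterol between membranes and a known SREBP target, fell in p16cis/cis mice. Stard4 (ENSMUSG00000024378.9, chromosome 18 from 33199355 to 33213862, minus strand) had normalized counts of 4229, 4856, 3813, 4054 and 5024 in ApcMin/+ replicates 1 to 5 and 2510.4, 2442, 3274 and 2519 in p16cis/cis replicates 1 to 4. Every p16cis/cis mouse was below every ApcMin/+ mouse, and p16cis/cis replicate 3 came closest. The means were 4395 ± 522 (SD, n = 5) in ApcMin/+ against 2686 ± 393 (SD, n = 4) in p16cis/cis mice, a log2 fold change of -0.71 ± 0.12 (SE) with an adjusted p of 0.00491 in limma, 0.00575 in edgeR and 6.4e-06 in DESeq2. The call held when any 1 of the 9 mice was left out, with adjusted p-values of 0.0024 to 0.0213 and log2 fold changes of -0.81 to -0.66. It was lost with GC and length correction and the replicate number as a block together (log2 fold change -0.50, adjusted p = 0.0541 in limma), with the mitochondrial share as a covariate (-0.70, adjusted p = 0.848) and under Bonferroni adjustment. Among females alone, 2 ApcMin/+ against 3 p16cis/cis mice, Stard4 was the single member called lower, beside 2.63% of all genes, with a log2 fold change of -0.76 and an adjusted p of 0.0366 in limma.

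The 7 genes from acetyl units to squalene gave 0 calls in limma, edgeR or DESeq2. In 4 of them the log2 fold change was below 0 and in 3 above, from -0.69 to 0.38 with a median of -0.02, and 1 was lower at an unadjusted p under 0.05, beside 17% of all genes. Idi1, the isopentenyl diphosphate isomerase, had the largest difference, with means of 72.2 ± 22.8 (SD, n = 5) in ApcMin/+ against 43.0 ± 8.19 (SD, n = 4) in p16cis/cis mice and a log2 fold change of -0.69 ± 0.28 (SE) (limma, adjusted p = 0.104). Its lowest values were 34.5 in p16cis/cis replicate 4, 38.3 in replicate 2 and 40.7 in ApcMin/+ replicate 4, so the groups overlapped. Without ApcMin/+ replicate 4 Idi1 was called, with a log2 fold change of -0.88 and an adjusted p of 0.0197 in limma. Fdps, the farnesyl diphosphate synthase, was next, with means of 170.0 ± 27.0 (SD, n = 5) in ApcMin/+ against 239 ± 118 (SD, n = 4) in p16cis/cis mice. Its mean in p16cis/cis mice was carried by replicate 3 at 401 beside 120.0, 231 and 205 in replicates 1, 2 and 4, and its log2 fold change was 0.38 ± 0.28 (SE) (limma, adjusted p = 0.38). Hmgcs1, the HMG-CoA synthase at the head of the path, ranged from 4733 to 7587 in ApcMin/+ mice and from 2702 in replicate 1 to 7504 in replicate 3 of p16cis/cis mice. The tops of these ranges were nearly level and the bottom was lower in p16cis/cis mice.

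The 10 genes from squalene to cholesterol also gave 0 calls in limma and in edgeR, and DESeq2 called 1 of them, Hsd17b7. In 8 of them the log2 fold change was below 0 and in 2 above, with a median of -0.28, and 4 were lower and 1 higher at an unadjusted p under 0.05, beside 17% and 16.2% of all genes. Hsd17b7, a sterol ketoreductase of the demethylation steps, had means of 587 ± 126 (SD, n = 5) in ApcMin/+ against 381 ± 148 (SD, n = 4) in p16cis/cis mice and a log2 fold change of -0.68 ± 0.24 (SE), with an adjusted p of 0.0705 in limma and 0.0494 in DESeq2. Sqle, the squalene epoxidase that is a rate-limiting step of the path, had means of 3155 ± 405 (SD, n = 5) in ApcMin/+ against 2220.2 ± 907 (SD, n = 4) in p16cis/cis mice and a log2 fold change of -0.58 ± 0.21 (SE) (limma, adjusted p = 0.0821). Both genes showed the same layout of mice: 3 p16cis/cis mice were below all 5 ApcMin/+ mice, and replicate 3, at 579 for Hsd17b7 and 3499.7 for Sqle, was inside the ApcMin/+ range. Dhcr7, which carries out the last step to cholesterol in one branch, was the 1 member of this group that was higher at an unadjusted p under 0.05, with means of 3276 ± 403 (SD, n = 5) in ApcMin/+ against 4257 ± 998 (SD, n = 4) in p16cis/cis mice and an adjusted p of 0.109 in limma.

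The 6 genes of fatty acid synthesis, from citrate cleavage to palmitate and with the supply of acetyl-CoA and NADPH, held 1 call. Of the log2 fold changes 3 were below 0 and 3 above, with a median of 0.04. Acacb (ENSMUSG00000042010.16, chromosome 5 from 114146535 to 114250761, plus strand) encodes the acetyl-CoA carboxylase at the outer mitochondrial membrane, whose malonyl-CoA restrains fatty acid oxidation. Its normalized counts were 333, 494, 716, 732 and 551 in ApcMin/+ replicates 1 to 5 and 299, 354, 275 and 315 in p16cis/cis replicates 1 to 4. ApcMin/+ replicate 1 was inside the p16cis/cis range and the other 4 ApcMin/+ mice were above all p16cis/cis mice. The means were 565 ± 166 (SD, n = 5) in ApcMin/+ against 311 ± 33.2 (SD, n = 4) in p16cis/cis mice, a log2 fold change of -0.81 ± 0.21 (SE) with an adjusted p of 0.0228 in limma, 0.0178 in edgeR and 0.00124 in DESeq2. The call was lost without ApcMin/+ replicate 3 (adjusted p = 0.0585), without p16cis/cis replicate 3 (0.0515) or without p16cis/cis replicate 4 (0.0578), all in limma, and it held without any 1 of the other 6 mice. With sex as a covariate its adjusted p was 0.0576 and in females alone 0.276, both in limma. Acaca, the cytosolic carboxylase that feeds fatty acid synthesis, was measured on the other side of 0. Its means were 503 ± 74.8 (SD, n = 5) in ApcMin/+ against 636 ± 108 (SD, n = 4) in p16cis/cis mice, the log2 fold change was 0.33 ± 0.15 (SE) and it had an adjusted p of 0.132 in limma. Per kb of exon, taken over the exons of all transcripts of a gene, Acacb was at 58.7 normalized counts in ApcMin/+ mice and 32.3 in p16cis/cis mice. Acaca was at 29.5 and 37.2. On this scale Acacb was the higher of the pair in 5 of 5 ApcMin/+ mice and in 1 of 4 p16cis/cis mice, replicate 2. The order depends on these lengths. In undivided counts Acacb was below Acaca in ApcMin/+ replicates 1 (333 beside 503) and 2 (494 beside 607). It was above Acaca in ApcMin/+ replicates 3 to 5 and below it in every p16cis/cis mouse. The change of order was not tested. Fasn, the fatty acid synthase, had means of 5113 ± 437 (SD, n = 5) in ApcMin/+ against 5625 ± 1481 (SD, n = 4) in p16cis/cis mice.

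The 6 genes of desaturation and elongation gave 0 calls in limma and in edgeR, and DESeq2 called 1, Elovl6. Of the log2 fold changes 5 were below 0 and 1 above, with a median of -0.24. Elovl6, which elongates palmitate, had means of 1419 ± 231 (SD, n = 5) in ApcMin/+ against 1054 ± 188 (SD, n = 4) in p16cis/cis mice and a log2 fold change of -0.43 ± 0.15 (SE), with an adjusted p of 0.0607 in limma and 0.0387 in DESeq2. Scd1, a stearoyl-CoA desaturase, had 537, 979, 901, 1252 and 858 in ApcMin/+ replicates 1 to 5 and 688, 455, 1743 and 393 in p16cis/cis replicates 1 to 4. The p16cis/cis replicate 3 was the highest of all 9 mice for Scd1 while replicates 2 and 4 were the lowest. The log2 fold change of Scd1 was -0.36 ± 0.37 (SE) (limma, adjusted p = 0.541). Scd2, its close relative on the same chromosome, was the most abundant member per kb of exon, at 3601 normalized counts in ApcMin/+ mice, followed by Acly at 1425, Fads2 at 1348 and Hmgcs1 at 1252. The least abundant by this measure were Idi1 at 20.6 and Acaca at 29.5. The measure divides by the exons of all transcripts of a gene, so this ranking depends on the annotated lengths. Reads of Scd1 and Scd2 can be shared between these similar genes, which makes the split between them uncertain.

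**Figure D2:**
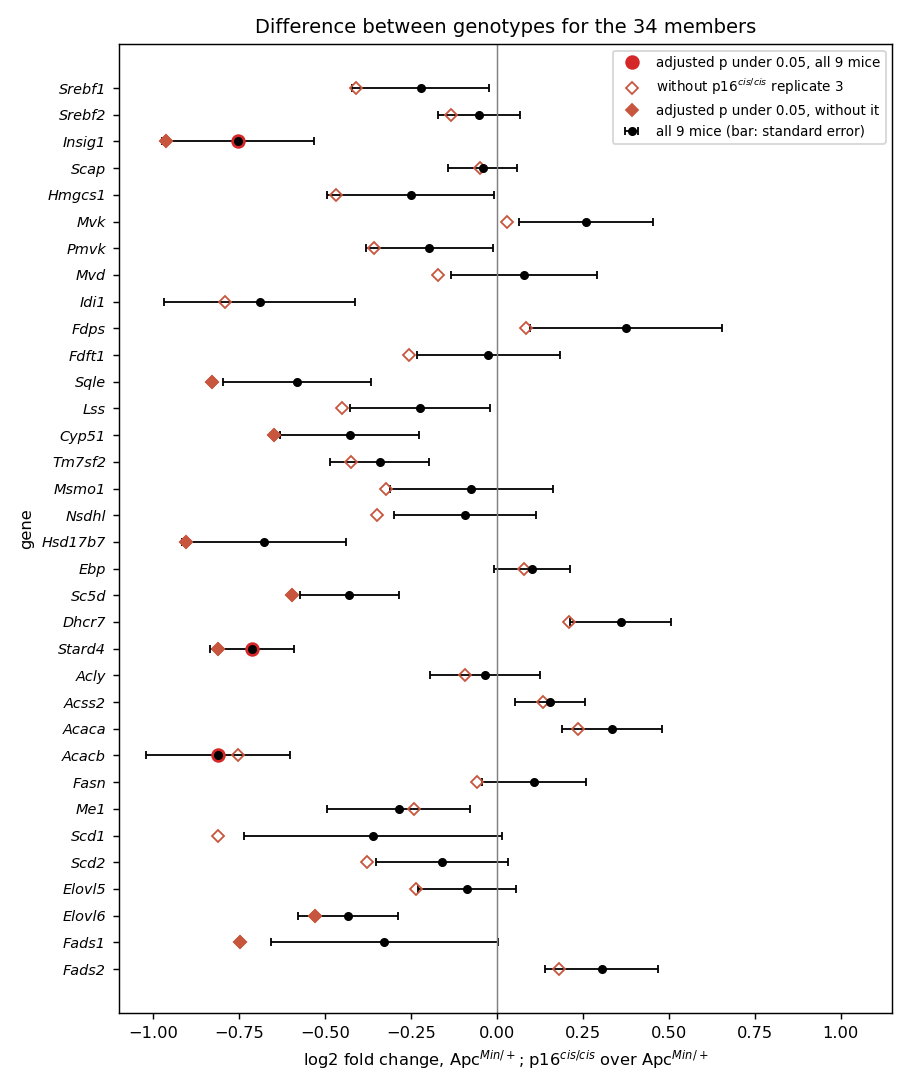
Log2 fold change of p16cis/cis over ApcMin/+ mice (x axis) for the 34 members (y axis), as black points with standard errors for all 9 mice and as diamonds without p16cis/cis replicate 3. Larger red points are the 3 members called in all 9 mice and filled diamonds the 8 called without that mouse. For 30 of the 34 members that mouse was the highest of its genotype.

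Among the p16cis/cis mice the members were spread widely, and 1 mouse was at the top for most of them. The p16cis/cis replicate 3 was the highest of its genotype for 30 of the 34 members, beside 30.7% of all genes tested. It was the highest of all 9 mice for 17 members, a count for which the share of all genes was not worked out. The exceptions to the 30 were Ebp and Me1, highest of the genotype in replicate 4, Acss2, highest in replicate 1, and Acacb, highest in replicate 2. The level in replicate 3 was a median of 1.58 times the mean of the other 3 p16cis/cis mice over the members and 1.02 times over all genes tested. By role the median ratio was 1.88 from acetyl units to squalene, 1.83 from squalene to cholesterol, 1.66 in desaturation and elongation, 1.47 among the regulators, 1.31 for Stard4 and 1.11 in fatty acid synthesis. The count of 30 was 29 after TMM scaling, 28 after upper-quartile scaling and 29 after a correction for GC content and length.

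Single genes show how far this mouse stood out. Fads1, a desaturase of polyunsaturated fatty acids, was at 1198 in p16cis/cis replicate 3 and between 316 and 433 in the other 3. Nsdhl, a sterol dehydrogenase, was at 2612 beside 1252 to 1306. Mvk, the mevalonate kinase, was at 1609 beside 784 to 978. These were chosen after their values were seen. In ApcMin/+ mice the same genes ranged from 436 to 786 for Fads1, from 1300.0 to 1977 for Nsdhl and from 672 to 983 for Mvk, so replicate 3 was also above all 5 controls for these genes.

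The opposite end was most often p16cis/cis replicate 1, the single male of the genotype. It was the lowest of its genotype for 17 of the 34 members, beside 25.9% of all genes tested, and 14 of these 17 were among the 17 genes of sterol synthesis. Among the 12 genes of fatty acid synthesis, desaturation and elongation it was the lowest for 2. On average over the 17 sterol synthesis genes, the log2 deviation from each gene's mean was -0.52 in p16cis/cis replicate 1, -0.20 in replicate 2, 0.50 in replicate 3 and -0.15 in replicate 4. In the 5 ApcMin/+ mice the same average was between -0.05 and 0.17. Over the 12 fatty acid genes it was -0.14, -0.22, 0.35 and -0.28 in p16cis/cis replicates 1 to 4 and between -0.13 and 0.20 in ApcMin/+ mice. The SD on the log2 scale was larger in p16cis/cis than in ApcMin/+ mice for 27 of the 34 members, beside 49.0% of all genes tested, with a median SD over members of 0.39 and 0.21. Without p16cis/cis replicate 3 it was larger for 16 of 34, beside 42.7% of all genes. The part of sex, which differs between replicate 1 and the other p16cis/cis mice, was not tested for this pattern.

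**Figure D3:**
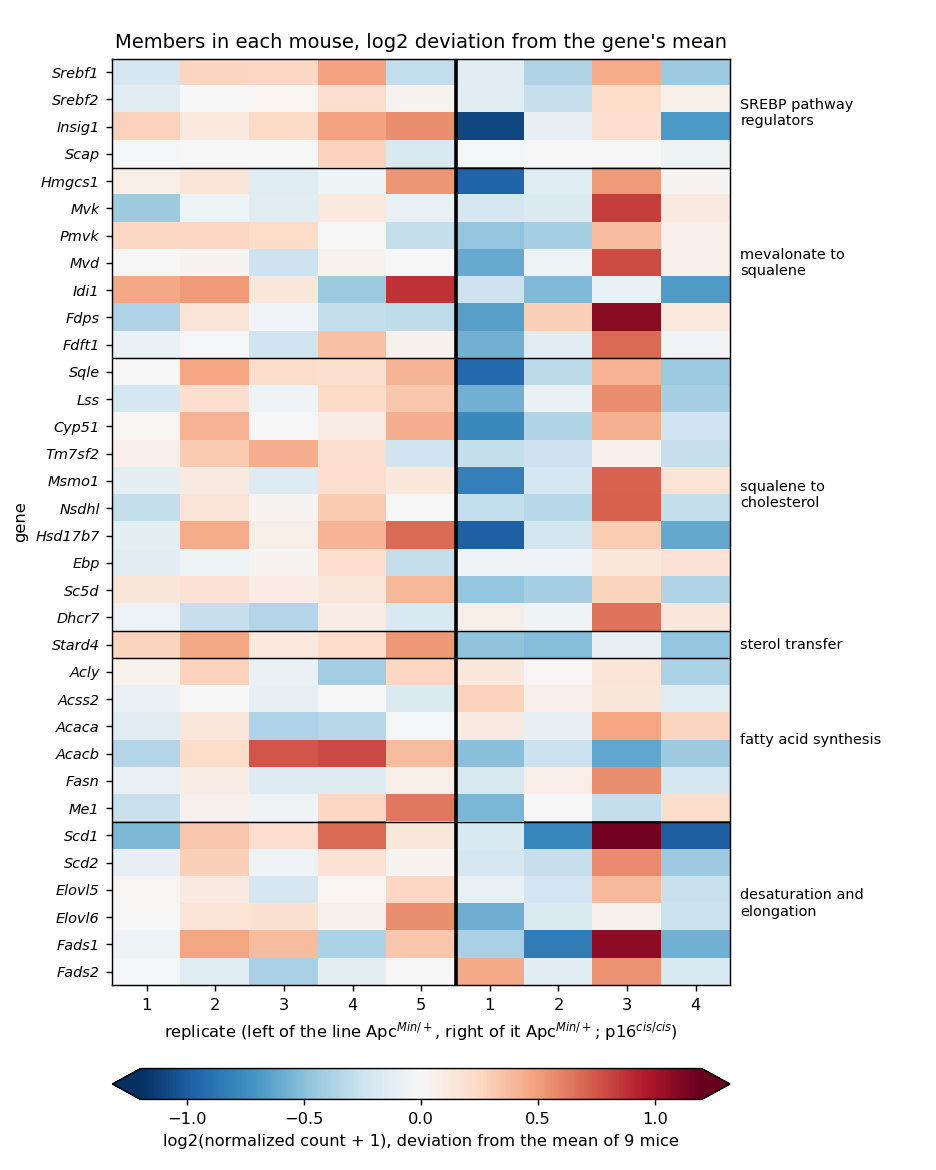
Log2 deviation of each member (rows, grouped by role) from its mean over the 9 mice in each mouse (columns, 5 ApcMin/+ replicates left of the line and 4 ApcMin/+; p16cis/cis replicates right of it), red above and blue below the mean. The column of p16cis/cis replicate 3 is above the mean for 16 of the 17 sterol synthesis genes (all but Idi1) and for the 6 of desaturation and elongation, and that of replicate 1 is below it for 16 of the 17 (all but Dhcr7), with averages over the 17 sterol synthesis genes of 0.50 and -0.52.

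**Figure D4:**
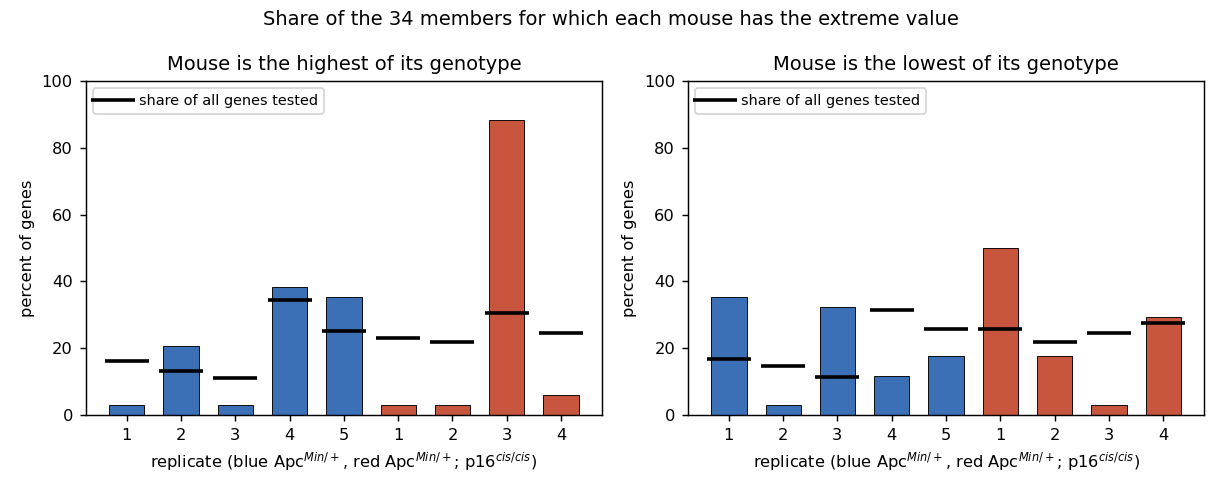
Percent of the 34 members (bars) and of the 14410 genes tested (black lines) for which each mouse was the highest (left) or the lowest (right) of its genotype, for the 5 ApcMin/+ (blue) and 4 ApcMin/+; p16cis/cis replicates (red). The p16cis/cis replicate 3 was highest for 30 members and replicate 1 lowest for 17.

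Leaving out p16cis/cis replicate 3 raised the number of members called lower from 3 to 8, beside 8.22% of the 14410 genes tested. The 8 were Insig1, Sqle, Cyp51, Hsd17b7, Sc5d, Stard4, Elovl6 and Fads1, and Acacb was no longer called. Of these, Cyp51 is the lanosterol demethylase and Sc5d the desaturase of a late sterol intermediate. Their log2 fold changes without that mouse lay between -0.96 for Insig1 and -0.53 for Elovl6, and the median over the 34 members was -0.35, with 27 below 0. For 10 of the 34 members the other 3 p16cis/cis mice were all below every ApcMin/+ mouse, beside 12.2% of all genes tested. Leaving out ApcMin/+ replicate 4 gave 5 calls, beside 12.5% of all genes, and leaving out ApcMin/+ replicate 3 or p16cis/cis replicate 4 left Stard4 alone, beside 4.65% and 4.5%. With sex as a covariate 3 members were called lower, Insig1, Stard4 and Elovl6, beside 5.28%. The 5 members that DESeq2 called lower were Insig1, Hsd17b7, Stard4, Acacb and Elovl6. In each of these fits 0 members were called higher. Nothing in the labels sets replicate 3 apart, its depth of 14535179 reads and its mitochondrial share of 22.5% are inside the range of its genotype, and leaving it out was chosen after its values were seen.

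Genes that process SREBP precursors or degrade sterol pathway proteins were read next, and whether their share of calls differs from that of the members was not tested. Of this list of 10 genes 9 were tested, and 6 passed as lower in p16cis/cis mice (limma, adjusted p under 0.05) and 0 as higher, beside 8.75% and 8.14% of all genes tested. DESeq2 called the same number lower, beside 11.5% of the genes it tested, and edgeR 5, beside 9.05% of all genes. The median log2 fold change over the 9 was -0.40. In the lower direction 5 of them had no overlap between the genotypes, beside 8.95% of all genes tested. The largest difference was in Rnf139, an endoplasmic reticulum ubiquitin ligase, with 538, 606, 591, 426 and 621 in ApcMin/+ replicates 1 to 5 and 403, 268, 302 and 262 in p16cis/cis replicates 1 to 4. Every p16cis/cis value was below every ApcMin/+ value, and the log2 fold change was -0.86 ± 0.16 (SE) (limma, adjusted p = 0.00665). Insig2, the paralog of Insig1 that also retains Scap, had 601, 627, 773, 594 and 667 in ApcMin/+ replicates 1 to 5 and 426, 341, 369.7 and 406 in p16cis/cis replicates 1 to 4. The groups were again apart, with a log2 fold change of -0.76 ± 0.12 (SE) (limma, adjusted p = 0.00341). Erlin1, a membrane protein of the degradation machinery, had 1246, 1306, 1366, 1288 and 1352 in ApcMin/+ replicates 1 to 5 and 857, 829, 1062 and 822 in p16cis/cis replicates 1 to 4. It had no overlap either, with a log2 fold change of -0.56 ± 0.10 (SE) (limma, adjusted p = 0.00571).

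The calls of Rnf139, Insig2 and Erlin1 held without any 1 of the 9 mice, and those of the other 3 called genes of the list did not, so that the count fell to 3 without ApcMin/+ replicate 2 or 3 or without p16cis/cis replicate 2 or 4, beside 5.0%, 4.65%, 4.77% and 4.5% of all genes called lower. The count was 4 without p16cis/cis replicate 3, 3 with sex as a covariate and 2 in females alone, beside 8.22%, 5.28% and 2.63% of all genes called lower. It was 3 with no filter on low values and 3 with the replicate number as a block, fits for which the share of all genes called was not worked out. With the mitochondrial share as a covariate or under Bonferroni adjustment it was 0, beside 0.0% and 0.153% of all genes. These alternatives were added for this list after the data were seen. The p16cis/cis replicate 3 was the highest of its genotype for 1 of the 10 genes of this list, in contrast to its place among the members, a difference that was not tested.

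**Figure D5:**
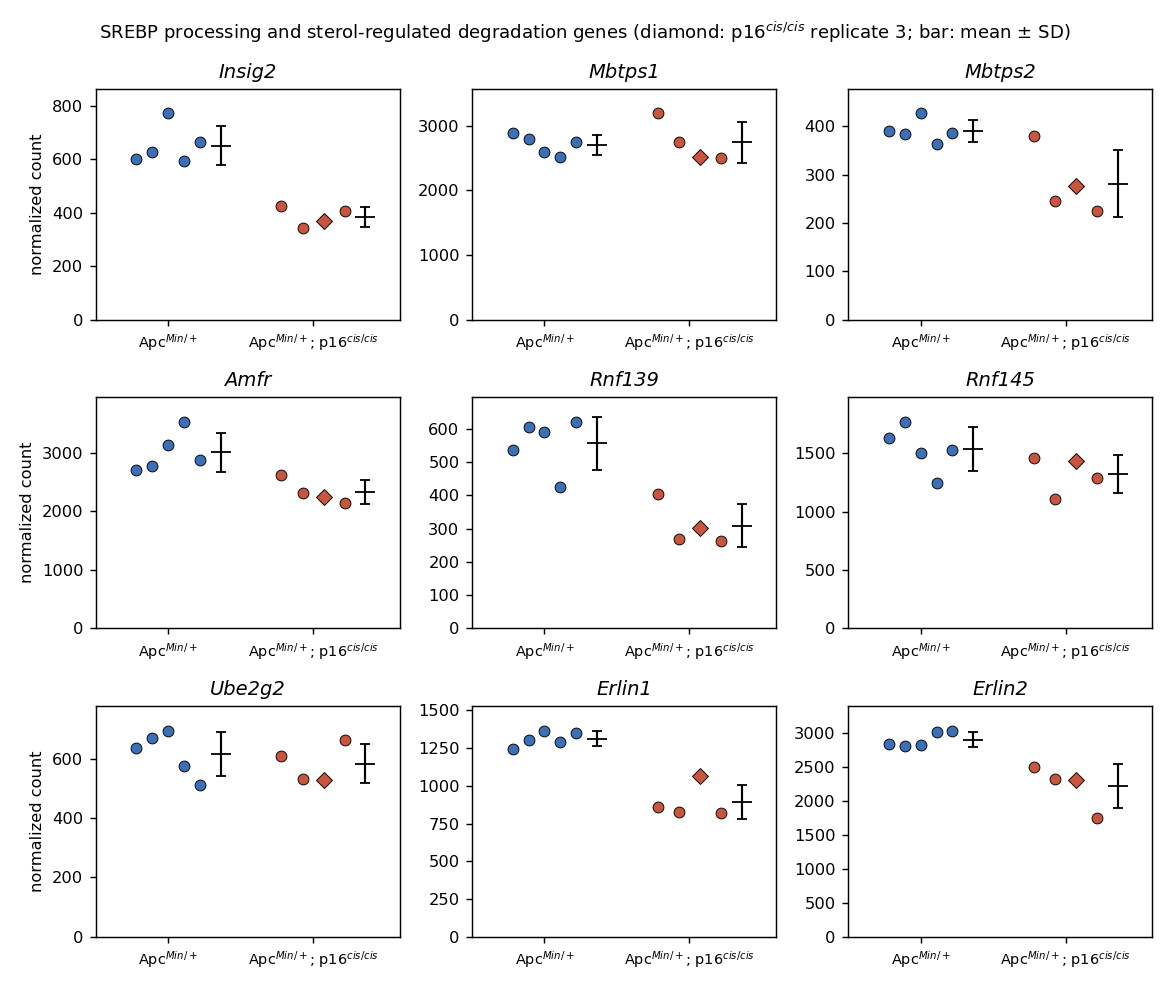
Normalized counts (y axis, from 0) of the 9 tested genes of SREBP processing and sterol-regulated degradation in the 5 ApcMin/+ mice (blue) and the 4 ApcMin/+; p16cis/cis mice (red), with mean and SD as black bars and p16cis/cis replicate 3 as a diamond. The groups do not overlap for 5 genes, Rnf139, Insig2 and Erlin1 among them, beside 8.95% of all genes tested in the lower direction. The diamond is the highest p16cis/cis value for Erlin1 alone.

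Other genes of the pathway were read by list. Of 7 further genes of sterol synthesis 1 was called lower and 0 higher in limma, beside 8.75% and 8.14% of all genes. It was Lbr, a sterol reductase that also anchors chromatin at the nuclear lamina, with means of 1128 ± 245 (SD, n = 5) in ApcMin/+ against 716 ± 186 (SD, n = 4) in p16cis/cis mice and an adjusted p of 0.0371. All 7 had log2 fold changes below 0, with a median of -0.43, and p16cis/cis replicate 3 was the highest of its genotype for 6 of them. Without that mouse 4 of the 7 were called lower, beside 8.22% of all genes, and Lbr was not (adjusted p = 0.0562 in limma). The Lbr call was also lost without any 1 of 5 other mice, with adjusted p-values up to 0.109.

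Of 14 genes of cholesterol uptake, transport and esterification 3 were called lower and 0 higher in limma, beside 8.75% and 8.14% of all genes tested, with a median log2 fold change of -0.15. Npc1l1, the receptor for dietary cholesterol at the cell surface, had 11.2, 14.3, 28.3, 122 and 21.6 in ApcMin/+ replicates 1 to 5 and 3.79, 7.98, 1.50 and 3.13 in p16cis/cis replicates 1 to 4. In 3 of the 4 p16cis/cis mice this was at or below the value of 3 reads, so no fold is given. Its ApcMin/+ values were led by replicate 4. Because all 4 p16cis/cis values were under 10, Npc1l1 passed the filter through the ApcMin/+ mice alone, where it is high, so its call (limma, adjusted p = 0.0211) is no independent support, and it was lost without ApcMin/+ replicate 3 or p16cis/cis replicate 4 (adjusted p up to 0.0577). Lipa, the lysosomal lipase that frees cholesterol from its esters, had means of 1072 ± 306 (SD, n = 5) in ApcMin/+ against 563 ± 138 (SD, n = 4) in p16cis/cis mice (limma, adjusted p = 0.0152), and was not called without p16cis/cis replicate 2 (adjusted p = 0.0522). Osbp, which exchanges sterol between endoplasmic reticulum and Golgi, had means of 2319 ± 169 (SD, n = 5) in ApcMin/+ against 1789.9 ± 78.5 (SD, n = 4) in p16cis/cis mice (limma, adjusted p = 0.0181), and its call was lost without any 1 of 4 mice, ApcMin/+ replicates 2 and 3 and p16cis/cis replicates 2 and 4, with adjusted p-values up to 0.0554.

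Of 8 genes of the liver X receptors, which answer to surplus sterol, and their targets, 1 was called lower and 1 higher in limma, beside 8.75% and 8.14% of all genes tested, with a median log2 fold change of 0.12. Nr1h2, the receptor LXR-beta, rose, with means of 2123 ± 329.6 (SD, n = 5) in ApcMin/+ against 3189 ± 132 (SD, n = 4) in p16cis/cis mice, with no overlap between the genotypes and an adjusted p of 0.0074 that stayed under the threshold without any 1 mouse. Lpcat3, a phospholipid acyltransferase and target of these receptors, fell, with means of 2445 ± 530.1 (SD, n = 5) in ApcMin/+ against 1538 ± 187 (SD, n = 4) in p16cis/cis mice (limma, adjusted p = 0.0195), a call that was lost without ApcMin/+ replicate 3 or p16cis/cis replicate 2 or 4, with adjusted p-values up to 0.0638.

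Of 23 further genes of fatty acid synthesis 20 were tested, and 1 was called lower and 1 higher in limma, beside 8.75% and 8.14% of all genes tested, with a median log2 fold change of -0.01. Mlxipl, the carbohydrate-responsive factor ChREBP that works beside Srebf1 on lipogenic genes, had 880.4, 867, 744, 658 and 865 in ApcMin/+ replicates 1 to 5 and 1552, 1646, 837 and 1446 in p16cis/cis replicates 1 to 4. Replicates 1, 2 and 4 of the p16cis/cis mice were above every ApcMin/+ mouse, and replicate 3 was within their range, which makes it the lowest p16cis/cis mouse for this gene. The log2 fold change of Mlxipl was 0.73 ± 0.18 (SE) (limma, adjusted p = 0.0209), and the call was lost without ApcMin/+ replicate 3 or p16cis/cis replicate 1, 2 or 4 (adjusted p up to 0.0695). Idh1, a cytosolic source of NADPH, had means of 4718 ± 347 (SD, n = 5) in ApcMin/+ against 3574 ± 346 (SD, n = 4) in p16cis/cis mice (limma, adjusted p = 0.0211), and its call was lost without ApcMin/+ replicate 2 or 3 or p16cis/cis replicate 2 or 4 (adjusted p up to 0.0685).

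Of 11 genes of glycerolipid synthesis, which store or build on the fatty acids, 3 were called lower and 1 higher in limma, beside 8.75% and 8.14% of all genes tested, with a median log2 fold change of -0.15. Mogat2, which re-forms diacylglycerol in enterocytes, had means of 96.9 ± 34.8 (SD, n = 5) in ApcMin/+ against 45.4 ± 8.65 (SD, n = 4) in p16cis/cis mice (limma, adjusted p = 0.0236). Dgat2, which makes triacylglycerol, had means of 1602 ± 443 (SD, n = 5) in ApcMin/+ against 827 ± 366 (SD, n = 4) in p16cis/cis mice (limma, adjusted p = 0.0224). Lpin2, a phosphatidate phosphatase, had means of 1032 ± 176 (SD, n = 5) in ApcMin/+ against 571 ± 55.5 (SD, n = 4) in p16cis/cis mice (limma, adjusted p = 0.00384). The Lpin2 call held without any 1 mouse. Those of Mogat2 and Dgat2 were lost without ApcMin/+ replicate 3 or p16cis/cis replicate 1 or 2, and that of Dgat2 also without p16cis/cis replicate 4, with adjusted p-values up to 0.0646 and 0.0711. The gene called higher, Agpat1, was named after its value was seen and lost its call without any 1 of 5 mice.

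Markers of other cells were read beside these results, and their part in them was not tested. Of 10 immune markers tested 2 were called lower, Jchain and Lyz2, and 0 higher, beside 8.75% and 8.14% of all genes tested. The log2 fold change was below 0 in 8 of the 10 and above 0 in 2. At an unadjusted p under 0.05 in limma 4 were lower and 1 was higher, beside 17% and 16.2% of all genes. The summed level of the 11 in the list was 192 to 1804 normalized counts in ApcMin/+ and 351 to 549.9 in p16cis/cis mice. Of 9 stromal, muscle and vessel markers tested 1 was called lower, Col3a1, beside 8.75% of all genes tested, and all 9 had log2 fold changes below 0. The sums over the list of 10 were 300.0 to 1053 in ApcMin/+ and 191 to 427 in p16cis/cis mice. The Col3a1 call was lost without any 1 of ApcMin/+ replicates 1, 2, 3 and 5 and p16cis/cis replicates 1 and 4 (limma, adjusted p up to 0.110). Both lists are low beside the epithelial sum. Of 10 markers of adipocytes, cells rich in lipid synthesis, Lep was at 0 in every mouse and Adipoq, Plin1 and Retn were at 7.98 normalized counts or less, so these 4 were at or near 0. Cidec and Lipe made most of the adipocyte sum of 276 to 688 and 249 to 326, and Cidec, 1 of the 2 tested, was called lower, beside 8.75% of all genes. Of 10 squamous and sebocyte markers 4, Trp63, Ivl, Mc5r and Awat1, were at 0 in every mouse, and the others had reads in at least 1 mouse. The sums were 73.2 to 125 in ApcMin/+ and 87.1 to 155 in p16cis/cis mice, with 0 of the 3 tested called in limma. Of 14 epithelial markers 1 was called lower, Slc26a3, an anion exchanger of mature surface colonocytes, beside 8.75% of all genes, and 0 higher, beside 8.14%. Of 10 markers of cycling cells 3 were called higher, Mki67, Birc5 (not without p16cis/cis replicate 2, adjusted p = 0.0715 in limma) and Ube2c, beside 8.14% of all genes. The log2 fold change was above 0 in 7 of the 10 and below 0 in 3. At an unadjusted p under 0.05 in limma 4 were higher and 1 was lower, beside 16.2% and 17% of all genes. The sums were 7823 to 11333 in ApcMin/+ and 11887 to 15103 in p16cis/cis mice and do not overlap. In p16cis/cis replicate 3 the sums were 557695 for epithelium, 497 for immune cells, 296 for stroma and 12743 for cycling cells. The epithelial sum was the highest of its genotype, as were its adipocyte sum of 326 and its squamous sum of 155, and the other 3 sums lay between those of the other p16cis/cis mice.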

How the data were processed

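The authors deposited 1 table of signal values, gene counts divided by a DESeq2 size factor of each library, for 9 mice, each mouse being 1 replicate. RNA from colonic crypts was sequenced on the BGISEQ-500 platform, aligned with BOWTIE2 and quantified with RSEM. The versions and the genome build are not given in the sources used here. Coordinates and exon lengths came from GENCODE M21 (GRCm38), in which 29 of the 34 identifiers had the same version. Every positive value, 100%, was a whole number of reads to within 0.01 reads.

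Because the values are normalized, the main test was limma 3.58.1 (R 4.3.3, trended variances) on log2(normalized count + 1) over 14410 genes, with genotype as the only term and Benjamini-Hochberg adjustment over all of them. Fold changes on this scale understate changes of low genes. Alternatives were the count tests of edgeR 4.0.16 and of DESeq2 1.42.0, run on those whole reads, other scalings, filters, a pseudocount of 0.1, covariates, a loess correction for GC content and length (span 0.5), and each mouse left out. The procedure was tested on simulated data with changes larger than that of any member, so the test does not cover differences of the size seen in the members. Members with an adjusted p under 0.05 and the regulators are given in every mouse, other members by range and with the 2 largest differences of a role, and genes of other lists where called, at most 3 per list. The members and lists were chosen with earlier results of these data known. Floors of 3 reads cover counting error only.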

Additional observations from a re-analysis of the deposited data

Results flagged for a closer look

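In 68 combinations of a member and a genotype, the highest or lowest mouse was set against the others of its group by Dixon's ratio of the gap to the whole range. Of these 8 stood apart at the 95% level, where chance gives about 1 in 20, or 3.4 of 68. Members that vary together are not independent, and neither are these 8.

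In 5 of the 8 the mouse was p16cis/cis replicate 3, each time as the highest of its genotype. Tm7sf2 was at 649 beside 510.2 to 523 in the other 3 mice, Nsdhl at 2612 beside 1252 to 1306, Sc5d at 1895 beside 1144 to 1230, Stard4 at 3274 beside 2442 to 2519, and Fads1 at 1198 beside 316 to 433.

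The other 3 were in ApcMin/+ mice. Mvd was at 1134 in replicate 3 beside 1337 to 1387, Sc5d at 2083 in replicate 5 beside 1688 to 1774, and Elovl6 at 1813 in replicate 5 beside 1227 to 1396.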

How the results depend on the processing

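Of 782 comparisons of a member's log2 fold change with that of an alternative, 696 kept direction and side of the threshold, 14 passed it newly, 23 fell short of it and 49 changed sign. The 696 were mainly members not called in either fit, and only the 3 called members could fall short. Insig1 lost its call in 13 of 23 alternatives, Acacb in 7 of 23 and Stard4 in 3 of 23. None of the changed signs belonged to a called member, and the cause was not tested. The count of members called lower was 3 and became 5 in DESeq2, 1 in females alone, 0 with the mitochondrial share as a covariate, 0 under Bonferroni adjustment, and 1 to 8 with each mouse left out. It was 3 after edgeR, TMM or upper-quartile scaling, either filter and the pseudocount of 0.1, and the counts of members called higher or with a fold over 2 were 0 throughout. The count of 6 called genes of SREBP processing, whose alternatives were added after seeing the data, became 3 with no filter, 3 with sex, 2 in females, 0 with the mitochondrial share, 0 under Bonferroni adjustment, and 3 to 6 with each mouse left out. Same-numbered mice did not deviate together, with correlations of -0.18, 0.07, 0.05 and 0.14 for replicates 1 to 4, so the numbers are no pairing. With the replicate block 3 members (Tm7sf2, Stard4 and Acacb) and 3 processing genes were called. With GC and length correction as well these counts were 2 (Tm7sf2 and Acacb) and 3, and Stard4 was lost at an adjusted p of 0.0541 in limma. Acly changed sign to 0.025 under the block. ApcMin/+ replicate 5 has no p16cis/cis mouse of its number, so it does not enter the genotype difference in the block fits. The share of all genes called was not worked out for the block, scaling, filter and pseudocount fits, so their counts have no background beside them.

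Other changed signs, as log2 fold changes, were 0.031 (Fdft1) and 0.018 (Msmo1) in edgeR, 0.038 (Fdft1) and 0.025 (Msmo1) in DESeq2, 0.0075 (Fdft1) with upper-quartile scaling and -0.051 (Mvd) with sex. In females they were 0.13 (Srebf1), 0.057 (Srebf2), 0.075 (Scap), 0.030 (Pmvk), 0.19 (Fdft1), 0.21 (Msmo1) and 0.18 (Nsdhl). With the mitochondrial share they were 0.51 (Srebf1), 0.19 (Srebf2), 0.045 (Scap), -0.19 (Mvd), 0.035 (Tm7sf2), 0.38 (Nsdhl), 0.022 (Acly), 0.93 (Scd1), 0.20 (Scd2), 0.0039 (Elovl5) and 0.54 (Fads1). That share does not overlap between the genotypes, so this fit cannot separate it from genotype, and 0 of 14410 genes were called lower in it. With GC and length correction the changed signs were -0.13 (Mvd), 0.051 (Msmo1), -0.0057 (Fasn) and 0.029 (Elovl5), and with the replicate block added 0.0086 (Hmgcs1), -0.084 (Mvd), 0.062 (Msmo1), -0.0042 (Ebp), 0.022 (Acly), -0.016 (Fasn) and 0.071 (Elovl5). With each mouse left out the range was -0.13 to 0.030 (Srebf2), -0.091 to 0.023 (Scap), -0.47 to 0.022 (Hmgcs1), -0.17 to 0.29 (Mvd), -0.26 to 0.16 (Fdft1), -0.32 to 0.19 (Msmo1), -0.35 to 0.0031 (Nsdhl), -0.14 to 0.085 (Acly) and -0.057 to 0.20 (Fasn). At 4 and 5 mice a missed threshold says little about a small difference.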
